A study of Bos taurus with 86 samples.

Results

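The genes described here are those of vesicle trafficking and of the Rab and Arf families of small GTPases, taken from the annotation of a bovine cDNA array by name. The rule takes every row with a single gene symbol that begins with RAB, ARF, ARL or SEC and a digit, with VPS, SNX, TMED, COPA, COPB, COPE, COPG or COPZ, or with AP1, AP2 or AP3 and one of the letters B, D, G, M and S. It found 96 genes on 244 of the 16416 rows, out of 4452 genes named on the array. Of these 96 members, 81 had values in at least 7 embryos of every group and were tested, and 15 were not. The rule uses gene names alone, and it was set with earlier results of these data known.

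Membrane and secreted proteins leave the endoplasmic reticulum in vesicles with a COPII coat, return from the Golgi in vesicles with a COPI coat, and are sorted further on by clathrin adaptors, sorting nexins and the retromer. Rab and Arf GTPases switch between a GTP-bound and a GDP-bound form and recruit coats, tethers and motors to one membrane at a time, so that each Rab marks its own stretch of the route. In mammalian embryos the outer cell layer of the blastocyst is a polarised epithelium whose surface proteins reach the apical or basolateral membrane by these routes. The roles given below are background known from yeast and mammalian cells, and the name rule also takes some genes that act elsewhere, such as the signal peptidase subunits SEC11A and SEC11C.

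Single bovine embryos were compared with a common reference RNA on 2-colour arrays, in 15 IVF, 14 IVD and 14 AI embryos. IVF was read as in vitro fertilization and AI as artificial insemination, while IVD is kept as the labels' own name, since they do not spell it out. The sources used here do not state the stage of the embryos, their breed or their parents. By the title, the study asked about the effects of maturation, fertilization and culture in vitro. Per the labels' protocols, embryo RNA was amplified linearly in 3 rounds and reference RNA in 2, and every embryo went onto 2 arrays, once in each dye, which makes 86 arrays. IVD embryos 12_1, 12_2, 12_3 and 12_4 have a number in common, with no reason stated. Nothing in the labels says that the embryos of a group came from separate cultures or dams, so p-values measure the spread between these embryos.

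Each value is a log2 ratio of embryo over reference, averaged over the embryo's 2 arrays, where 0 is the median ratio of the array. The labels do not state the direction of the ratio; it was taken as likely because trophectoderm markers (the outer cell layer of the blastocyst) had a median of 2.12 with 16 of 18 above 0, and fibroblast markers a median of -4.41 with 0 of 4 above 0. The opposite direction would turn the sign of every value and difference. The 1 measured inner cell mass marker, KLF4, had a median of 1.87 and was -0.46 in IVF minus AI, 0.61 in IVD minus AI and -1.07 in IVF minus IVD (limma adjusted p = 0.0363, 0.00478 and 3.26e-06). Both measured cumulus and granulosa markers, TNFAIP6 and CYP19A1, lay below 0 in the median (-0.20), as did both blood and immune markers, CD14 and ITGB2 (-0.62). The median over trophectoderm markers ran from 1.29 to 2.13 per IVF embryo, from 0.58 to 2.81 per IVD embryo and from 1.56 to 2.69 per AI embryo. Single trophectoderm markers passed in both directions, with 1 of 18 higher and 6 lower in IVF minus AI, 5 higher and 7 lower in IVD minus AI, and 4 higher and 7 lower in IVF minus IVD. Furthest in IVD minus AI were TFAP2C (1.04) and PTGS2 (1.03) upward and SSLP1 (-1.12) and KRT8 (-0.81) downward. The median over fibroblast markers ran from -4.47 to -3.57 per IVF embryo, from -5.30 to -4.69 per IVD embryo and from -4.58 to -4.01 per AI embryo, with IVD minus AI at -1.46 for COL3A1 and -1.07 for VIM (limma adjusted p = 1.37e-13 and 4.65e-14). The part of these markers in the members' differences was not tested. The groups differed in how the arrays behaved. Rows without a value numbered 3076.5 to 5099.5 per embryo in IVF, 1001.5 to 1871.5 in IVD and 3613 to 5713 in AI, as the mean of an embryo's 2 arrays. The correlation between an embryo's 2 dye-swapped arrays, which is negative when the dyes are exchanged, ran from -0.911 to -0.717 in IVF, from -0.767 to -0.589 in IVD and from -0.912 to -0.816 in AI. No IVD embryo lay in the AI range on either measure, so the handling of the IVD arrays and the IVD group cannot be told apart. In whole embryos, fewer cells of a type and less RNA per cell cannot be told apart either.

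Members moved in both directions in every comparison, at shares close to those of all features. Between IVF and AI embryos, 34 of 81 members passed the test (limma with Benjamini-Hochberg adjustment over all 6278 features, threshold 0.05), which is 42% of members beside 37.7% of all features. Of these, 22 were higher in IVF embryos (27.2% of members, 19.9% of features) and 12 lower (14.8% of members, 17.7% of features). Between IVD and AI embryos, 37 of 81 members passed, or 45.7% beside 46.5%. Here 23 were higher in IVD embryos (28.4% of members, 25.5% of features) and 14 lower (17.3% of members, 21% of features). Between IVF and IVD embryos, 39 of 81 members passed, or 48.1% beside 47.6%, with 22 higher in IVF embryos (27.2% of members, 22.3% of features) and 17 lower (21% of members, 25.2% of features). Among the 3433 named genes alone, 40.1%, 48.1% and 50% passed in IVF minus AI, IVD minus AI and IVF minus IVD. The median difference over the members was 0.13 for IVF minus AI, 0.11 for IVD minus AI and 0.067 for IVF minus IVD, against 0.041, 0.058 and -0.0088 over all features. These comparisons share groups in pairs, so their lists of members are not independent of each other.

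**Figure D1:**
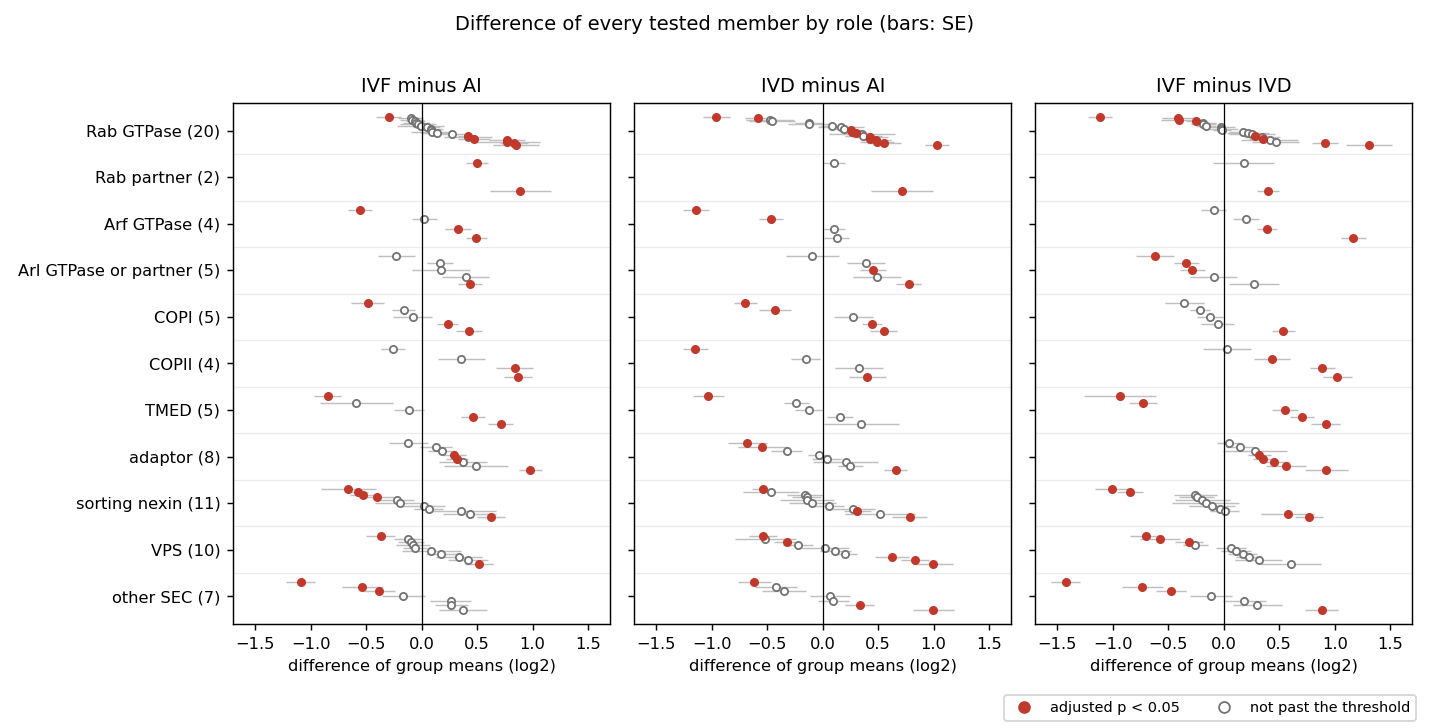
Difference of group means on the log2 scale (horizontal axis) for each of the 81 tested members, arranged by role (vertical axis, number of tested members in brackets), in IVF minus AI, IVD minus AI and IVF minus IVD. Filled points passed the limma test at an adjusted p of 0.05, open points did not, and bars are standard errors; filled points lie on both sides of 0 within the Rab GTPases, the sorting nexins and the COPI subunits in the IVF minus AI and IVD minus AI panels.

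Fewer IVF minus AI differences passed when the arrays' dye bias was in the fit. Clustering the embryos on their dye bias (the mean of the 2 deposited ratios of an embryo before the sign is turned) put 11 of 15 IVF embryos with 1 AI embryo, 2 IVF embryos with 13 AI and all 14 IVD embryos, and the other 2 IVF embryos, numbers 7 and 11, by themselves. The clusters thus largely follow the groups. Dye bias and the IVF group can be told apart only through the few embryos that share a cluster with the other group. With this cluster as a block in the fit, 7 of the 34 members passed, namely AP2B1, RAB32, SEC14L6, SNX5, TMED10, TMED4 and TMED9, and 498 of 6278 features did. The other 27 IVF minus AI calls below were lost in that fit, although all 27 differences had the same sign there and 19 were within 1.5 times of their value. Those of ARF5 (-0.37), COPZ1 (-0.20), RAB22A (0.32), RAB31 (0.47), RAB33A (0.50) and RAB5IF (0.33) were over 1.5 times smaller, and those of SNX12 (-1.14) and SNX2 (-0.75) over 1.5 times larger. With the values as given, without centring the arrays, 13 of the 34 were lost: AP1M2, AP2M1, ARF3, ARL6IP2, COPB1, COPB2, COPZ1, RAB15, RAB18, SEC11A, SEC62, SNX2 and VPS25. AP2B1, RAB32, SEC14L6, SNX5, TMED10 and TMED9 were called in all 13 alternatives.

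For IVD minus AI, 16 of 37 calls held in every alternative that tested the gene (11 or 12 per gene): AP2B1, ARF1, ARL6IP2, COPB1, COPB2, COPE, RAB11A, RAB14, RAB8A, SEC11C, SEC13, SNX14, TMED1, VPS13C, VPS53 and VPS8. With the values as given, the median difference of all features was 0.32, and the calls lost were those of AP1M1, AP3S2, ARF5, COPZ1, RAB15, SEC14L1, SNX1, VPS25 and VPS26B, all of which were lower in IVD embryos after centring. The share of member calls that were higher was then 87.5%, against 62.2% after centring, and 85.3% against 54.9% over all features. For IVF minus IVD, 16 of 39 calls held in every alternative that tested the gene: AP1M1, ARF1, ARL1, RAB11A, RAB8A, SEC11C, SEC13, SEC14L1, SEC14L6, SEC31A, SNX14, SNX24, SNX5, TMED1, TMED4 and VPS8. The dye-bias cluster was not a block in any fit of IVD minus AI or IVF minus IVD. All 14 IVD embryos lay in a cluster with 13 AI and only 2 IVF embryos. In IVF minus IVD, dye bias and group therefore cannot be told apart. With the values as given, the median difference of all features was -0.27 and the share of higher calls 29.4% of member calls against 56.4%, and 17.5% against 47% over all features. The 12 calls lost there were AP1S1, AP2B1, AP2M1, AP3S2, ARF4, COPE, RAB15, RAB32, RAB5IF, SEC23IP, SNX9 and TMED10.

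Among the Rab GTPases of early and recycling endosomes, RAB11A stood highest in IVD embryos. RAB11A directs vesicles from the recycling endosome back to the cell surface. Its log2 ratio ran from 0.35 to 1.41 with a median of 0.88 in IVF embryos, from 1.44 to 2.37 with a median of 2.00 in IVD embryos and from 0.53 to 1.27 with a median of 0.92 in AI embryos. Every IVD embryo lay above every embryo of the other groups, which overlapped each other. IVD minus AI was 1.03 ± 0.11 (limma adjusted p = 3.66e-10), or 2.04-fold, and the IVF minus IVD difference was -1.12 ± 0.11 (limma adjusted p = 1.82e-11). IVF minus AI was -0.088 ± 0.11 (limma adjusted p = 0.539) and did not pass. RAB11B, its close relative on the same route, passed in no comparison, with means of 0.52 ± 0.22 in IVF (13 embryos), 0.35 ± 0.27 in IVD (14 embryos) and 0.48 ± 0.40 in AI embryos (12 embryos, SD).

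RAB31, which carries cargo between the trans-Golgi network and endosomes, was highest in IVF embryos. It measured -3.27 to -0.44 (median -1.63) in IVF embryos, -3.61 to -2.14 (median -3.12) in IVD embryos and -3.32 to -1.66 (median -2.55) in AI embryos. In 12 of 15 IVF embryos it lay above all IVD embryos, and in 9 of 15 above all AI embryos. IVF minus IVD was 1.31 ± 0.21 (limma adjusted p = 1.22e-06) and IVF minus AI was 0.85 ± 0.21 (limma adjusted p = 0.0012), while IVD minus AI, at -0.46 ± 0.21 (limma adjusted p = 0.0702), did not pass. RAB31 has 2 clones on the array, of which 1 was kept, and both of its calls were lost when rows measured in as few as 2 embryos per group were let in, where IVF minus IVD was 0.37.

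RAB22A, a GTPase of early endosomes and of recycling, was higher in IVF than in AI embryos too. It ran from -0.73 to 0.94 with a median of 0.19 in IVF embryos, from -0.94 to 0.47 with a median of -0.15 in IVD embryos and from -1.51 to -0.018 with a median of -0.55 in AI embryos. The IVF minus AI difference was 0.77 ± 0.16 (limma adjusted p = 0.000277), with 12 of 15 IVF embryos above every AI embryo. The IVD minus AI difference was 0.43 ± 0.17 (limma adjusted p = 0.0319), but its 2 clones disagreed there, at -0.11 and 0.97, and the clone measured in every embryo alone gave -0.11 (limma adjusted p = 0.773). That clone also gave no IVF minus AI call.

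RAB14, which acts between the Golgi and early endosomes, was higher than in AI embryos in both other groups. Its values were -0.084 to 0.93 (median 0.40) in IVF embryos, 0.071 to 0.59 (median 0.42) in IVD embryos and -0.27 to 0.31 (median 0.00075) in AI embryos. For IVF minus AI the difference was 0.41 ± 0.083 (limma adjusted p = 0.000131) with 9 of 15 IVF embryos above all AI embryos, and IVD minus AI was 0.43 ± 0.084 (limma adjusted p = 5.85e-05) with 10 of 14 IVD embryos above them. RAB15, a regulator of endosomal recycling, was lower in both. IVD minus AI of RAB15 was -0.58 ± 0.11 (limma adjusted p = 5.21e-05), with 10 of 14 IVD embryos below every AI embryo, and IVF minus AI was -0.30 ± 0.11 (limma adjusted p = 0.0318). The IVF minus AI call of RAB15 was lost in 7 of 13 alternatives, and its IVF minus IVD difference of 0.29 ± 0.11 (limma adjusted p = 0.0321) in 5 of 12.

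The Rabs that govern fusion at the early endosome and fast recycling gave small differences. RAB4B, of the fast recycling route, was higher in IVD than in AI embryos by 0.25 ± 0.090 (limma adjusted p = 0.0201), and RAB5B, of early endosome fusion, by 0.30 ± 0.13 (limma adjusted p = 0.0468). Both IVD minus AI calls were lost with the embryo in Cy3 only, and that of RAB5B also with embryos 12_1 to 12_4 counted as 1. RAB5C, measured in 10 IVF, 14 IVD and 10 AI embryos, passed in no comparison, with IVF minus AI at 0.42 ± 0.22 (limma adjusted p = 0.131). Of the 9 tested Rabs of early and recycling endosomes, 3 were higher and 1 lower in IVF minus AI, beside 19.9% and 17.7% of all features. In IVD minus AI 5 were higher and 1 lower, beside 25.5% and 21%, and in IVF minus IVD 2 were higher and 1 lower, beside 22.3% and 25.2%.

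The Rabs of transport from the Golgi to the surface moved in opposite directions in IVD embryos. RAB8A, which guides vesicles to the basolateral membrane and the primary cilium, ran from -0.47 to 1.00 with a median of 0.19 in IVF embryos, from -1.13 to -0.25 with a median of -0.66 in IVD embryos and from -0.19 to 0.66 with a median of 0.23 in AI embryos (13 of 14 measured). All 14 IVD embryos lay below every AI embryo, and the IVD minus AI difference was -0.96 ± 0.12 (limma adjusted p = 3.75e-08), or 1.94-fold lower. The IVF minus IVD difference was 0.91 ± 0.12 (limma adjusted p = 3.77e-08) and IVF minus AI, at -0.047 ± 0.12 (limma adjusted p = 0.784), did not pass. Of 3 RAB8A clones on the array, 1 was measured in enough embryos to be kept, and these values are its own. RAB13, which takes part in the traffic of tight junction proteins, was instead higher in IVD embryos, at -3.73 to -2.45 (median -3.51) in IVF embryos, -3.75 to -2.30 (median -2.99) in IVD embryos and -4.15 to -2.48 (median -3.65) in AI embryos. Its IVD minus AI difference was 0.55 ± 0.15 (limma adjusted p = 0.00279) and IVF minus IVD was -0.41 ± 0.15 (limma adjusted p = 0.021), but both calls were lost with quantile normalization. RAB10, which acts on the same basolateral route as RAB8A, did not pass against AI embryos in either group, and was -0.25 ± 0.087 (limma adjusted p = 0.0144) in IVF minus IVD, where its 2 clones differed in sign (-0.53 and 0.089) and the call was lost in 3 of 12 alternatives.

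RAB1A, of transport between the endoplasmic reticulum and the Golgi, did not pass in any comparison. It measured 0.79 to 1.58 (median 1.31) in IVF embryos, 1.00 to 1.88 (median 1.38) in IVD embryos and 0.67 to 1.87 (median 1.34) in AI embryos, so every embryo of every group lay above 0. Its IVF minus AI, IVD minus AI and IVF minus IVD differences were -0.097 ± 0.11, 0.087 ± 0.12 and -0.18 ± 0.11. The Rabs of late endosomes did not pass either. RAB9A, which returns mannose 6-phosphate receptors to the Golgi, had an IVD minus AI difference of -0.48 ± 0.21 (limma adjusted p = 0.0629) and an IVF minus IVD difference of 0.47 ± 0.21 (limma adjusted p = 0.0622). RAB7B, of late endosomes and lysosomes, had an IVD minus AI difference of -0.12 ± 0.19 (limma adjusted p = 0.631), and 1 IVF embryo, at 2.24, lay above every other embryo.

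RAB32, which serves lysosome-related organelles and mitochondria, gave the Rab call that held best in IVF minus AI. It ran from -2.12 to -0.20 with a median of -1.31 in IVF embryos, from -2.02 to -0.97 with a median of -1.58 in IVD embryos and from -2.25 to -1.62 with a median of -2.09 in AI embryos, below 0 in every embryo. In 13 of 15 IVF embryos RAB32 lay above every AI embryo, and IVF minus AI was 0.83 ± 0.13 (limma adjusted p = 2.18e-06), or 1.78-fold. With the dye-bias cluster as a block it was 1.00 (limma adjusted p = 0.00342). For IVD minus AI the difference was 0.48 ± 0.13 (limma adjusted p = 0.00218), a call that was lost when the embryo number was a block. IVF minus IVD was 0.35 ± 0.13 (limma adjusted p = 0.021), lost in 2 of 12 alternatives.

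RAB33A, a relative of a Golgi Rab, was measured in 15 IVF, 14 IVD and 9 AI embryos, with an IVF minus AI difference of 0.77 ± 0.29 (limma adjusted p = 0.0347). The AI embryos ran from -4.75 to -1.29 and 3 of 15 IVF embryos lay above them, and the call was lost in 7 of 12 alternatives. RAB18, of lipid droplets and the endoplasmic reticulum, was higher than in AI embryos in IVF embryos by 0.47 ± 0.15 (limma adjusted p = 0.0114) and in IVD embryos by 0.49 ± 0.15 (limma adjusted p = 0.00838). In 10 of 13 measured IVF embryos and 9 of 11 measured IVD embryos it lay above all 11 measured AI embryos, and both calls were lost with the embryo in Cy5 only. RAB20 was higher in IVD than in AI embryos by 0.26 ± 0.11 (limma adjusted p = 0.0494), a call lost in 7 of 12 alternatives. RAB28, known for its role in photoreceptors and cilia, was lower in IVF than in IVD embryos at -0.40 ± 0.16 (limma adjusted p = 0.0362), a call lost in 3 of 12.

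Both measured partners of Rabs were higher in IVF than in AI embryos for the mean of both dyes, beside 19.9% of all features. Neither call held with the embryo in Cy3 only. RAB11FIP5, an effector that binds RAB11, ran from -3.90 to -0.85 with a median of -2.73 in IVF embryos, from -4.02 to -2.04 with a median of -2.72 in IVD embryos and from -4.26 to -1.37 with a median of -3.89 in AI embryos. In RAB11FIP5, 1 of 15 IVF embryos lay above all AI embryos and the groups overlapped widely. In IVF minus AI it was 0.89 ± 0.28 (limma adjusted p = 0.01) and IVD minus AI was 0.71 ± 0.28 (limma adjusted p = 0.0343), calls lost in 2 of 12 and 4 of 11 alternatives. RAB5IF, named for an interaction with RAB5, had an IVF minus AI difference of 0.50 ± 0.099 (limma adjusted p = 0.000112) and an IVF minus IVD difference of 0.40 ± 0.099 (limma adjusted p = 0.00098). The dyes disagreed on RAB5IF. With the embryo in Cy3 only, IVF minus AI was 0.089 (limma adjusted p = 0.614) and its call was lost, and IVF minus IVD was -0.45 (limma adjusted p = 0.00327) against 1.24 with the embryo in Cy5.

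The 4 Arf GTPases each had a pattern of their own. ARF1 recruits the COPI coat and the adaptor AP-1 to Golgi membranes. It ran from 0.086 to 1.00 with a median of 0.55 in IVF embryos, from -1.04 to -0.078 with a median of -0.71 in IVD embryos and from 0.18 to 1.20 with a median of 0.48 in AI embryos. All 14 IVD embryos lay below 0 and below every embryo of the other groups, while every IVF and AI embryo lay above 0. In IVD minus AI it was -1.14 ± 0.12 (limma adjusted p = 1.24e-10), or 2.21-fold lower, and IVF minus IVD was 1.17 ± 0.11 (limma adjusted p = 2.81e-11), or 2.24-fold. Between IVF and AI embryos the difference was 0.024 ± 0.11 (limma adjusted p = 0.885) and did not pass.

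ARF3, which like ARF1 belongs to class I, passed in IVF minus AI at 0.33 ± 0.12 (limma adjusted p = 0.0278) in 12 IVF and 12 AI embryos, a call lost in 7 of 12 alternatives. Its dyes disagreed as well, since IVD minus AI was -0.54 (limma adjusted p = 0.00258) with the embryo in Cy5 and IVF minus IVD was -0.56 (limma adjusted p = 0.000959) with the embryo in Cy3, against 0.13 ± 0.11 and 0.20 ± 0.11 for the mean of both. No direction is given for ARF3.

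ARF4 and ARF5, the class II Arfs of the early secretory pathway, moved apart. ARF4 measured 0.50 to 1.22 (median 0.73) in IVF embryos, -0.073 to 0.65 (median 0.44) in IVD embryos and -0.11 to 0.66 (median 0.31) in AI embryos. In 9 of 15 IVF embryos it lay above all AI embryos, with IVF minus AI at 0.49 ± 0.092 (limma adjusted p = 4.67e-05) and IVF minus IVD at 0.39 ± 0.092 (limma adjusted p = 0.000509). ARF5 measured 0.014 to 1.16 (median 0.56) in IVF embryos, 0.12 to 1.07 (median 0.62) in IVD embryos and 0.70 to 1.56 (median 1.07) in AI embryos. In 10 of 15 IVF and 9 of 14 IVD embryos it lay below every AI embryo, with IVF minus AI at -0.56 ± 0.11 (limma adjusted p = 9.3e-05) and IVD minus AI at -0.46 ± 0.11 (limma adjusted p = 0.00067). The IVD minus AI call of ARF5 was lost with the embryo in Cy3 only and with the values as given.

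Of the 5 Arl GTPases and partners of Arl proteins, none passed as lower than in AI embryos. Of all features, 17.7% did so in IVF minus AI and 21% in IVD minus AI. In IVF minus IVD 3 of the 5 were lower, beside 25.2% of all features. ARL6IP2, which is atlastin-2, a GTPase that fuses tubules of the endoplasmic reticulum, ran from 0.61 to 2.39 with a median of 0.96 in IVF embryos, from 1.04 to 1.80 with a median of 1.36 in IVD embryos and from 0.34 to 1.03 with a median of 0.53 in AI embryos. All 14 IVD embryos lay above every AI embryo, and so did 6 of 15 IVF embryos. Between IVD and AI embryos the difference was 0.77 ± 0.11 (limma adjusted p = 4.1e-07), IVF minus AI was 0.44 ± 0.11 (limma adjusted p = 0.00197) and IVF minus IVD was -0.34 ± 0.11 (limma adjusted p = 0.0114). Its 2 clones agreed in sign but not in size, at 0.25 and 1.22 for IVD minus AI. For IVF minus IVD they gave -0.0048 and -0.82. The IVD minus AI difference was over 1.5 times as large with rows measured in every embryo (1.22) and with 1 row per gene (1.20). The IVF minus IVD call was lost with quantile normalization.

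ARL6IP1, which shapes tubules of the endoplasmic reticulum, was higher in IVD than in AI embryos by 0.45 ± 0.12 (limma adjusted p = 0.00161), with 10 of 14 IVD embryos above all AI embryos. For IVF minus IVD the difference was -0.28 ± 0.11 (limma adjusted p = 0.0386), and both calls were lost with the embryo number as a block. The IVF minus IVD call was also lost with the embryo in Cy5 only (-0.017, limma adjusted p = 0.916). ARL1, which brings golgins to the trans-Golgi network, measured -1.58 to 0.13 (median -0.71) in IVF embryos, -1.13 to 0.52 (median -0.16) in IVD embryos and -1.41 to 0.25 (median -0.32) in AI embryos. Its IVF minus IVD difference was -0.62 ± 0.17 (limma adjusted p = 0.00236), while IVD minus AI, at 0.39 ± 0.17 (limma adjusted p = 0.0568), did not pass. ARL6IP6 and ARL10 passed in no comparison, with IVD minus AI at 0.49 ± 0.22 and -0.094 ± 0.24.

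Subunits of the COPI coat, which are recruited to the Golgi as a single complex, did not move together. COPB1 and COPB2, the beta and beta' subunits, were higher than in AI embryos in both other groups. COPB1 measured -0.96 to 0.34 (median -0.27) in IVF embryos, -0.61 to 0.22 (median -0.080) in IVD embryos and -1.55 to 0.0030 (median -0.61) in AI embryos, with IVD minus AI at 0.55 ± 0.12 (limma adjusted p = 0.000307) and IVF minus AI at 0.43 ± 0.12 (limma adjusted p = 0.00487). For COPB2, IVD minus AI was 0.44 ± 0.091 (limma adjusted p = 0.000104) and IVF minus AI was 0.23 ± 0.091 (limma adjusted p = 0.0386), the smaller of which was lost in 5 of 12 alternatives. In IVD embryos COPB2 had the smallest SD of all members, 0.10.

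COPE, the epsilon subunit, went the other way in IVD embryos. It ran from -0.93 to 0.19 with a median of -0.65 in IVF embryos, from -1.31 to -0.76 with a median of -1.10 in IVD embryos and from -0.67 to 0.038 with a median of -0.37 in AI embryos. All 14 IVD embryos lay below every AI embryo, and 9 of 15 IVF embryos lay above every IVD embryo. IVD minus AI was -0.70 ± 0.10 (limma adjusted p = 6.62e-07) and IVF minus IVD was 0.54 ± 0.10 (limma adjusted p = 3.46e-05). COPZ1, the zeta subunit, was lower in both other groups than in AI embryos, with IVF minus AI at -0.49 ± 0.15 (limma adjusted p = 0.0087) and IVD minus AI at -0.43 ± 0.14 (limma adjusted p = 0.0138). With the embryo in Cy3 only, the IVD minus AI call of COPZ1 was lost, and with the embryo number as a block both were. COPG2, a gamma subunit, passed in no comparison and lay below 0 in every embryo, with an IVF minus IVD difference of -0.36 ± 0.18 (limma adjusted p = 0.0899).

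In the COPII coat, the 2 proteins that form the outer cage moved differently. SEC13 and SEC31A pair to build that cage, and SEC13 is also a part of the nuclear pore. SEC13 ran from -0.39 to 0.97 with a median of 0.37 in IVF embryos (14 of 15 measured), from -1.01 to -0.27 with a median of -0.52 in IVD embryos (12 of 14 measured) and from 0.071 to 0.89 with a median of 0.63 in AI embryos (13 of 14 measured). Every measured IVD embryo lay below every measured AI embryo, and below 0. The IVD minus AI difference was -1.15 ± 0.12 (limma adjusted p = 2.23e-10), or 2.22-fold lower, the most negative difference of any member in that comparison. In IVF minus IVD it was 0.89 ± 0.11 (limma adjusted p = 3.09e-08), and IVF minus AI, at -0.26 ± 0.11 (limma adjusted p = 0.0608), did not pass.

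SEC31A, for which 1 of 3 clones was kept, was highest in IVF embryos, at 0.28 to 1.40 (median 1.05) in IVF embryos, -0.56 to 0.44 (median -0.014) in IVD embryos and -0.38 to 0.73 (median 0.16) in AI embryos. In 12 of 15 IVF embryos it lay above all AI embryos and in 13 of 15 above all IVD embryos. IVF minus AI was 0.87 ± 0.13 (limma adjusted p = 1.39e-06) and IVF minus IVD was 1.02 ± 0.13 (limma adjusted p = 1.43e-08), while IVD minus AI, at -0.15 ± 0.13 (limma adjusted p = 0.348), did not pass. The IVF minus AI call was lost with the dye-bias cluster as a block, a fit that was not run for IVF minus IVD. The IVF minus IVD call held in every alternative that was run.

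SEC23IP, which binds SEC23 at the exit sites of the endoplasmic reticulum, was highest in IVF embryos, at -0.45 to 1.25 (median 0.38) in IVF embryos, -0.79 to 0.74 (median -0.034) in IVD embryos and -1.24 to 0.44 (median -0.44) in AI embryos. The IVF minus AI difference was 0.84 ± 0.16 (limma adjusted p = 9.56e-05), with 7 of 15 IVF embryos above all AI embryos. The smaller differences, 0.40 ± 0.17 (limma adjusted p = 0.0442) for IVD minus AI and 0.44 ± 0.16 (limma adjusted p = 0.0257) for IVF minus IVD, were lost in 2 of 12 and 5 of 12 alternatives. SEC16A, the scaffold of those exit sites, passed in no comparison, with IVF minus AI at 0.36 ± 0.21 (limma adjusted p = 0.178). SAR1A, a COPII protein that the name rule does not take, was 0.37 ± 0.11 (limma adjusted p = 0.00876) in IVF minus AI. Its IVD minus AI difference was 0.58 ± 0.12 (limma adjusted p = 7.25e-05), and IVF minus IVD, at -0.21 ± 0.11 (limma adjusted p = 0.132), did not pass.

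All 5 tested members of the TMED family, cargo receptors that cycle between the endoplasmic reticulum and the Golgi, differed between IVF and IVD embryos, 3 upward and 2 downward. Of all features, 22.3% were higher and 25.2% lower in that comparison. TMED1 ran from -1.09 to 1.03 with a median of -0.23 in IVF embryos, from -1.46 to -0.82 with a median of -1.11 in IVD embryos and from -0.65 to 0.44 with a median of -0.15 in AI embryos. All 14 IVD embryos lay below every AI embryo, and 14 of 15 IVF embryos lay above every IVD embryo. For IVD minus AI the difference was -1.03 ± 0.14 (limma adjusted p = 5.51e-08), or 2.04-fold lower, and IVF minus IVD was 0.92 ± 0.13 (limma adjusted p = 3e-07).

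TMED10 and TMED4 were highest in IVF embryos. TMED10 measured -0.21 to 1.04 (median 0.30) in IVF embryos, -0.74 to 0.11 (median -0.24) in IVD embryos and -0.84 to 0.17 (median -0.44) in AI embryos. IVF minus AI of TMED10 was 0.71 ± 0.12 (limma adjusted p = 7.1e-06), with 9 of 15 IVF embryos above all AI embryos, and it was 0.83 (limma adjusted p = 0.0152) with the dye-bias cluster as a block. Between IVF and IVD embryos the difference was 0.55 ± 0.12 (limma adjusted p = 0.000126). TMED4 had an IVF minus AI difference of 0.46 ± 0.11 (limma adjusted p = 0.000895), with 10 of 15 IVF embryos above every AI embryo and 1 below them, and an IVF minus IVD difference of 0.70 ± 0.11 (limma adjusted p = 9.11e-07). The IVF minus AI call of TMED4 was lost with the embryo number as a block.

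TMED9 was the 1 TMED member that passed as lower in IVF embryos against both other groups. It ran from -1.43 to -0.23 with a median of -0.95 in IVF embryos, from -0.42 to 0.36 with a median of -0.15 in IVD embryos and from -0.63 to 0.60 with a median of -0.018 in AI embryos. In 11 of 15 IVF embryos it lay below every AI embryo and in 12 of 15 below every IVD embryo. For IVF minus AI the difference was -0.85 ± 0.12 (limma adjusted p = 1.07e-06) and IVF minus IVD was -0.73 ± 0.12 (limma adjusted p = 4.88e-06). Its 2 clones gave -1.20 and -0.50 for IVF minus AI. With 1 row per gene, IVF minus AI was -0.53 and still passed, while IVF minus IVD was -0.15 and its call was lost. TMED5 was -0.94 ± 0.32 (limma adjusted p = 0.0158) in IVF minus IVD, did not pass in the others and had the widest spread of any member in IVF embryos (SD 0.98). The TMED5 call was lost without IVF embryos 1, 7 and 11.

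Among the clathrin adaptors, both tested members of AP-2, which gathers cargo at the plasma membrane, were higher in IVF than in AI embryos. Of all features, 19.9% were. AP2A2, an AP-2 subunit that the name rule does not take, did not pass there, at -0.27 ± 0.12 (limma adjusted p = 0.0656). In IVD minus AI AP2A2 was -0.88 ± 0.12 (limma adjusted p = 1.21e-07), and in IVF minus IVD 0.61 ± 0.12 (limma adjusted p = 4.5e-05). AP2B1, the beta subunit of AP-2, ran from 0.32 to 1.502 with a median of 1.20 in IVF embryos, from 0.40 to 1.32 with a median of 0.80 in IVD embryos and from -0.35 to 0.47 with a median of 0.18 in AI embryos. In 14 of 15 IVF embryos and 13 of 14 IVD embryos it lay above every AI embryo. In IVF minus AI it was 0.98 ± 0.10 (limma adjusted p = 1.15e-09), or 1.97-fold, the highest difference of any member in that comparison, and it was 1.10 (limma adjusted p = 0.000348) with the dye-bias cluster as a block. In IVD minus AI it was 0.66 ± 0.10 (limma adjusted p = 1.9e-06), and its 2 clones gave 0.57 and 0.75. AP2M1, the subunit that binds tyrosine-based signals of cargo, was higher in IVF embryos at 0.32 ± 0.099 (limma adjusted p = 0.00995) against AI and 0.36 ± 0.097 (limma adjusted p = 0.00243) against IVD, and the IVF minus AI call was lost without IVF embryos 1, 7 and 11.

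AP-1 works between the trans-Golgi network and endosomes. Of its 4 tested subunits, 1 was higher in IVF than in AI embryos, 1 lower in IVD than in AI embryos and 2 higher in IVF than in IVD embryos. The shares of all features were 19.9%, 21% and 22.3% in that order. AP1M1, its widespread mu subunit, measured -1.20 to 0.44 (median -0.63) in IVF embryos (14 of 15 measured), -1.83 to -0.78 (median -1.47) in IVD embryos and -1.90 to 0.45 (median -0.84) in AI embryos (9 of 14 measured). IVF minus IVD was 0.92 ± 0.19 (limma adjusted p = 0.000143), with 9 of 14 measured IVF embryos above all IVD embryos, and IVD minus AI was -0.55 ± 0.22 (limma adjusted p = 0.0369), a call lost in 4 of 11 alternatives. AP1M2, the mu subunit of epithelial cells, was higher in IVF than in AI embryos by 0.29 ± 0.11 (limma adjusted p = 0.0311), which 7 of 13 alternatives lost. AP1S1, a small subunit measured in 10 IVF, 11 IVD and 8 AI embryos, had an IVF minus IVD difference of 0.46 ± 0.13 (limma adjusted p = 0.00596), lost with the embryo number as a block. AP1G1, the gamma subunit, passed in no comparison, with IVF minus AI at 0.49 ± 0.29 (limma adjusted p = 0.178).

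In AP-3, which sorts cargo to lysosomes and related organelles, AP3S2 was lowest in IVD embryos. It measured -1.53 to 1.42 (median -0.13) in IVF embryos (14 of 15 measured), -0.98 to 0.092 (median -0.69) in IVD embryos and -0.62 to 0.83 (median 0.016) in AI embryos. In 9 of 14 IVD embryos AP3S2 lay below all AI embryos, with IVD minus AI at -0.68 ± 0.18 (limma adjusted p = 0.00186) and IVF minus IVD at 0.56 ± 0.18 (limma adjusted p = 0.00875). The IVF minus IVD call of AP3S2 was lost in 3 of 11 alternatives, among them the embryo in Cy3 only (0.32, limma adjusted p = 0.0971) and the block on the embryo number. AP3M1 passed in no comparison, and its 2 clones differed in sign for IVD minus AI (-0.42 and 0.49).

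Of the sorting nexins that form tubules with the retromer, SNX1 and SNX2 were lower and SNX5 higher in IVF than in AI embryos. SNX5 ran from 1.21 to 2.23 with a median of 1.55 in IVF embryos, from 0.084 to 1.32 with a median of 0.94 in IVD embryos and from 0.51 to 1.67 with a median of 1.03 in AI embryos. In 14 of 15 IVF embryos it lay above every IVD embryo and in 6 of 15 above every AI embryo. Between IVF and AI embryos the difference was 0.63 ± 0.13 (limma adjusted p = 0.000138) and IVF minus IVD was 0.77 ± 0.13 (limma adjusted p = 2.37e-06), and the IVF minus AI difference with the dye-bias cluster as a block was 0.65 (limma adjusted p = 0.0479). SNX1 measured 0.092 to 0.88 (median 0.40) in IVF embryos, -0.0022 to 0.88 (median 0.50) in IVD embryos and 0.34 to 1.30 (median 1.02) in AI embryos. IVF minus AI of SNX1 was -0.58 ± 0.094 (limma adjusted p = 6.26e-06) and IVD minus AI was -0.54 ± 0.095 (limma adjusted p = 1.08e-05), with 7 of 15 IVF and 4 of 14 IVD embryos below every AI embryo. SNX2 had an IVF minus AI difference of -0.40 ± 0.16 (limma adjusted p = 0.0389), lost in 7 of 13 alternatives.

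The retromer's own subunits, which form the core that binds cargo on endosomes, gave 1 call. VPS26B was lower in IVD than in AI embryos at -0.33 ± 0.12 (limma adjusted p = 0.0223), a call lost in 4 of 12 alternatives, and VPS29 passed in no comparison, with IVF minus IVD at -0.26 ± 0.11 (limma adjusted p = 0.0529). SNX3 and SNX27, which work with the retromer on other cargo, did not pass either. SNX3 had means of 1.34 ± 0.52 in IVF, 1.33 ± 0.21 in IVD and 1.28 ± 0.19 in AI embryos (SD, n = 15, 14 and 14), differences that lay within the SDs.

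Other sorting nexins gave some of the clearer differences between IVF and IVD embryos. SNX14, which sits at contacts of the endoplasmic reticulum with lipid droplets, ran from -2.44 to -0.79 with a median of -1.45 in IVF embryos, from -1.16 to -0.23 with a median of -0.59 in IVD embryos and from -1.89 to -0.076 with a median of -1.49 in AI embryos. Between IVD and AI embryos the difference was 0.79 ± 0.16 (limma adjusted p = 7.86e-05) and IVF minus IVD was -1.01 ± 0.15 (limma adjusted p = 7.69e-07). Both held in every alternative run for these comparisons, which left out the dye-bias cluster as a block. In 12 of 15 IVF embryos SNX14 lay below every IVD embryo, and 1 AI embryo at -0.076 lay above them all. SNX24 measured 1.54 to 2.70 (median 2.25) in IVF embryos, 2.69 to 3.53 (median 3.08) in IVD embryos and 2.15 to 3.27 (median 2.81) in AI embryos. In 14 of 15 IVF embryos SNX24 lay below every IVD embryo, with IVF minus IVD at -0.84 ± 0.12 (limma adjusted p = 1.23e-07), IVF minus AI at -0.53 ± 0.12 (limma adjusted p = 0.000487) and IVD minus AI at 0.31 ± 0.12 (limma adjusted p = 0.0298), the last of which was lost in 3 of 12 alternatives.

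SNX12, a relative of SNX3, was lower in IVF than in AI embryos at -0.66 ± 0.25 (limma adjusted p = 0.0328), and the call was lost with the embryo number as a block. SNX9, which acts with dynamin in endocytosis, was 0.58 ± 0.24 (limma adjusted p = 0.0425) in IVF minus IVD, did not pass in the others and had the widest spread of any member in IVD embryos (SD 0.73). The SNX9 call was lost in 3 of 12 alternatives, among them leaving out IVF embryos 1, 7 and 11. SNX10 and SNX16 passed in no comparison, with IVD minus AI at 0.28 ± 0.20 and 0.51 ± 0.31. Of 11 tested sorting nexins, 1 was higher and 4 lower in IVF minus AI, beside 19.9% and 17.7% of all features. For IVD minus AI the counts were 2 higher and 1 lower, beside 25.5% and 21%, and in IVF minus IVD 2 were higher and 2 lower, beside 22.3% and 25.2%.

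The VPS proteins belong to several complexes, most of them known first from vacuolar sorting in yeast. VPS53, of the GARP complex that tethers vesicles from endosomes at the Golgi, ran from -0.90 to 1.47 with a median of 0.057 in IVF embryos (14 of 15 measured), from 0.17 to 1.31 with a median of 0.56 in IVD embryos and from -1.40 to 0.30 with a median of -0.26 in AI embryos. In 12 of 14 IVD embryos it lay above every AI embryo. IVD minus AI was 1.00 ± 0.18 (limma adjusted p = 2.05e-05), or 1.99-fold, and IVF minus IVD was -0.58 ± 0.18 (limma adjusted p = 0.00807), which was -0.039 and lost with the embryo in Cy5 only. VPS52, its partner in GARP, passed in no comparison, at -0.23 ± 0.14 (limma adjusted p = 0.173) for IVD minus AI.

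VPS13C, a lipid transfer protein of late endosomes and mitochondria, was higher than in AI embryos in both other groups. It measured -0.093 to 1.81 (median 0.63) in IVF embryos, 0.48 to 1.45 (median 1.04) in IVD embryos and -0.11 to 0.58 (median 0.14) in AI embryos. In 12 of 14 IVD embryos and 8 of 15 IVF embryos it lay above all AI embryos. The IVD minus AI difference was 0.83 ± 0.13 (limma adjusted p = 1.29e-06) and IVF minus AI was 0.52 ± 0.13 (limma adjusted p = 0.00134), the second of which was lost with Cy5 arrays only and with the embryo number as a block. IVF minus IVD, at -0.31 ± 0.13 (limma adjusted p = 0.039), was lost in 5 of 12 alternatives.

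VPS8, of the CORVET tether of early endosomes, was highest in IVD embryos, at 0.75 to 2.19 (median 1.15) in IVF embryos, 1.24 to 2.56 (median 1.94) in IVD embryos and 0.64 to 2.25 (median 1.17) in AI embryos. For IVD minus AI the difference was 0.62 ± 0.15 (limma adjusted p = 0.000876) and IVF minus IVD was -0.70 ± 0.15 (limma adjusted p = 0.000149), with 9 of 15 IVF embryos below every IVD embryo. VPS16, which HOPS and CORVET share, and VPS33B passed in no comparison, with IVF minus IVD at 0.60 ± 0.27 (limma adjusted p = 0.0611) and 0.31 ± 0.21 (limma adjusted p = 0.22).

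VPS25, of the ESCRT-II complex that sorts ubiquitinated cargo into multivesicular bodies, was lower than in AI embryos in both other groups. In IVD minus AI it was -0.54 ± 0.12 (limma adjusted p = 0.000543), with 8 of 14 IVD embryos below all 13 measured AI embryos, and IVF minus AI was -0.37 ± 0.13 (limma adjusted p = 0.0258) in 11 measured IVF embryos, which was lost in 3 of 12 alternatives. VPS28, of ESCRT-I, passed in no comparison for the mean of both dyes, but the dyes disagreed on it. Its IVF minus IVD difference was -0.45 (limma adjusted p = 0.0122) with the embryo in Cy3 only and 0.59 (limma adjusted p = 0.0116) in Cy5 only. The mean of both gave 0.067 ± 0.14. VPS52 behaved in the same way, at -0.29 (limma adjusted p = 0.0442) in Cy3 and 0.36 (limma adjusted p = 0.0434) in Cy5, against 0.11 ± 0.13.

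Among the members that act at the entry to the secretory pathway or outside the coats, the signal peptidase subunits differed. SEC11C and SEC11A are the alternative catalytic subunits of the enzyme that cuts signal peptides from new secretory proteins. SEC11C ran from 0.19 to 1.95 with a median of 1.11 in IVF embryos, from 0.69 to 2.72 with a median of 1.94 in IVD embryos and from 0.11 to 1.37 with a median of 1.06 in AI embryos. In 11 of 14 IVD embryos it lay above every AI embryo, with IVD minus AI at 1.00 ± 0.19 (limma adjusted p = 2.92e-05) and IVF minus IVD at -0.73 ± 0.18 (limma adjusted p = 0.000996). SEC11A was lowest in IVF embryos instead, with IVF minus AI at -0.38 ± 0.14 (limma adjusted p = 0.0265) and IVF minus IVD at -0.48 ± 0.14 (limma adjusted p = 0.00407), both lost with the embryo in Cy5 only. The IVF minus AI call of SEC11A was also lost without IVF embryos 1, 7 and 11. SEC62, which assists import into the endoplasmic reticulum, was lower in IVF than in AI embryos at -0.53 ± 0.19 (limma adjusted p = 0.0213), a call lost in 4 of 13 alternatives, among them the block on the embryo number and leaving out IVF embryos 1, 7 and 11. SEC61A1, which forms the import channel, passed in no comparison, with IVD minus AI at -0.35 ± 0.20 (limma adjusted p = 0.148).

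SEC14L6, a SEC14-like protein of the family that binds lipids, gave the most negative difference of the members in both IVF minus AI and IVF minus IVD. It ran from -0.58 to 0.85 with a median of 0.055 in IVF embryos, from 1.06 to 1.95 with a median of 1.35 in IVD embryos and from 0.64 to 1.96 with a median of 0.90 in AI embryos. Every IVF embryo lay below every IVD embryo and 14 of 15 lay below every AI embryo. IVF minus AI was -1.09 ± 0.13 (limma adjusted p = 2.43e-08), or 2.13-fold lower, and -0.96 (limma adjusted p = 0.0135) with the dye-bias cluster as a block. The IVF minus IVD difference was -1.42 ± 0.13 (limma adjusted p = 5.02e-12), or 2.68-fold lower. Between IVD and AI embryos the difference was 0.33 ± 0.13 (limma adjusted p = 0.0351) and was lost in 6 of 12 alternatives.

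SEC14L1 of the same family was lowest in IVD embryos, with IVF minus IVD at 0.88 ± 0.15 (limma adjusted p = 4.49e-06) and IVD minus AI at -0.62 ± 0.15 (limma adjusted p = 0.000802). In 9 of 14 measured IVF embryos SEC14L1 lay above every IVD embryo. SEC22B, a SNARE of the route between the endoplasmic reticulum and the Golgi, was measured in 7 IVF, 13 IVD and 14 AI embryos. For the mean of both dyes it passed in no comparison, with IVF minus AI at 0.37 ± 0.22 (limma adjusted p = 0.177). With the embryo in Cy3 only, SEC22B was 0.85 (limma adjusted p = 2.25e-05) in IVF minus AI and 0.67 (limma adjusted p = 0.000268) in IVF minus IVD.

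**Figure D2:**
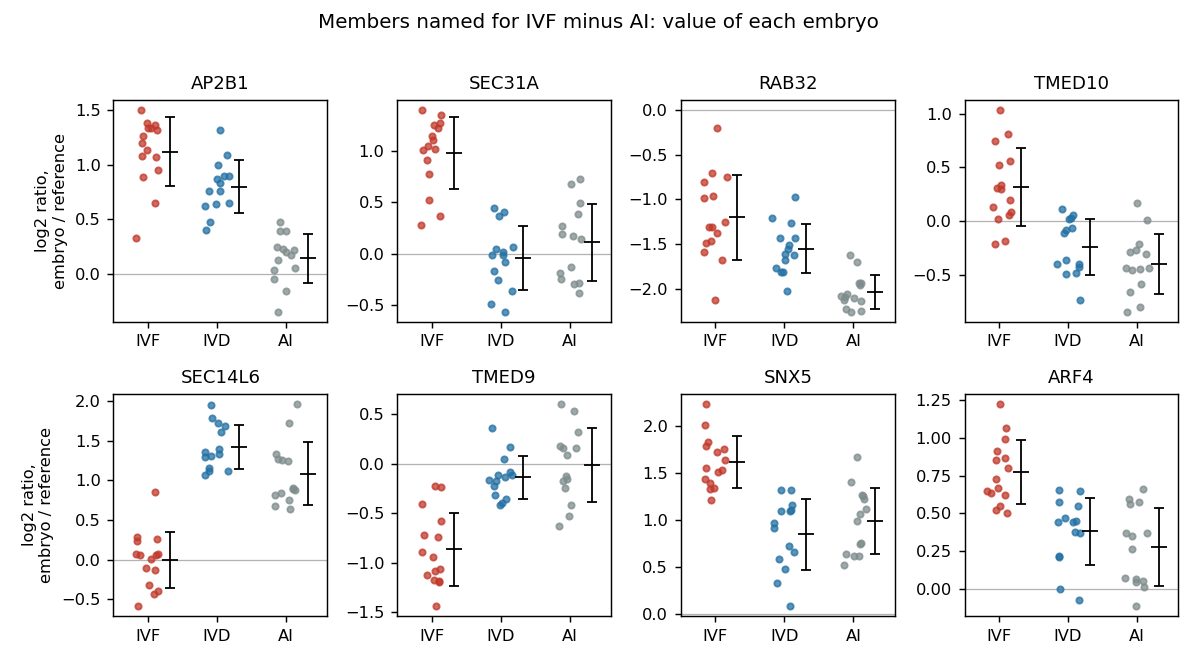
Log2 ratio of embryo over reference (vertical axis, 0 is the array's median ratio) in each of 15 IVF, 14 IVD and 14 AI embryos for 8 members named for IVF minus AI; points are embryos, and the black mark and bar beside them are the mean and SD. In AP2B1, SEC31A, RAB32, TMED10, SNX5 and ARF4 most IVF embryos lie above most AI embryos, in SEC14L6 and TMED9 below them, and no member here or among the others separates IVF from AI embryos without overlap, while SEC14L6 separates IVF from IVD embryos.

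Complete separation of all embryos of a pair of groups was seen in IVD minus AI for 7 of 81 members, beside 2.84% of all features. ARF1, COPE, RAB8A, SEC13 and TMED1 were lower, and ARL6IP2 and RAB11A higher, in every measured IVD embryo than in any AI embryo. The values of ARL6IP2 are the mean of 2 clones, which gave 0.25 and 1.22 for IVD minus AI. In IVF minus IVD it was seen for 3 members, beside 3.28% of features: ARF1 was higher and RAB11A and SEC14L6 were lower in every IVF embryo. In IVF minus AI it was seen for 0 of 81 members, beside 0.542% of features, although limma called 34 members there. A limma call with a difference of at least 1 on the log2 scale in either direction was made for 1 member in IVF minus AI (SEC14L6), beside 4.32% of features, for 4 in IVD minus AI (ARF1, RAB11A, SEC13 and TMED1), beside 6.8%, and for 6 in IVF minus IVD (ARF1, RAB11A, RAB31, SEC14L6, SEC31A and SNX14), beside 8.17%.

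**Figure D3:**
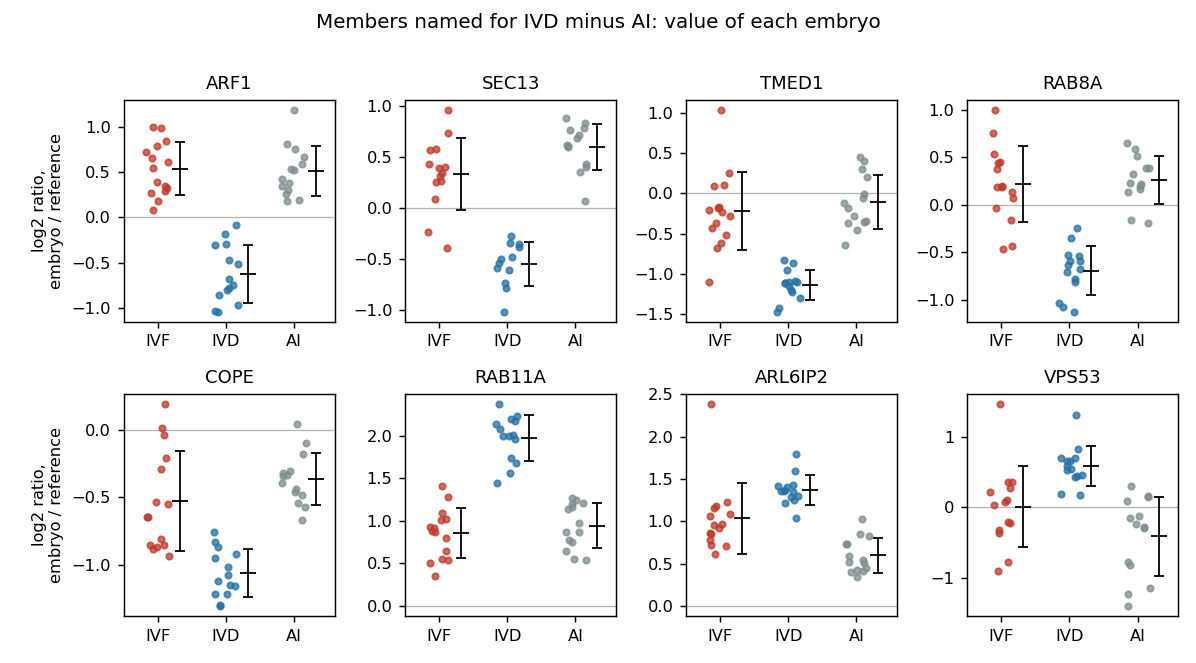
Log2 ratio of embryo over reference (vertical axis, 0 is the array's median ratio) in each measured IVF, IVD and AI embryo for 8 members named for IVD minus AI; points are embryos, and the black mark and bar beside them are the mean and SD. IVD embryos lie below all AI embryos in ARF1, SEC13, TMED1, RAB8A and COPE and above all of them in RAB11A and ARL6IP2, while in VPS53 12 of 14 IVD embryos lie above all AI embryos.

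The 15 members that were not tested were mostly measured in IVD embryos and rarely in the others. For 9 of them, a row had a value on both arrays in at least 13 IVD embryos and in at most 4 IVF and 4 AI embryos. With SEC31A and VPS25, which were tested on other rows, 11 members showed this on 22 rows, as did 1708 rows, or 10.4%, of the whole table. RAB7A, which drives fusion of late endosomes with lysosomes, had a value in 0 IVF, 14 IVD and 1 AI embryo, with a median of 0.16 in IVD embryos. RAB37, of secretory granules, had values in 0 IVF, 14 IVD and 0 AI embryos. AP2S1, the small subunit of AP-2, had them in 1 IVF, 14 IVD and 1 AI embryo, and SEC24D, a cargo-binding COPII subunit, in 2 IVF, 14 IVD and 1 AI embryo. The same held for AP1S3, COPZ2, SNX17, SNX25 and VPS39. No source used here gives the rule that left a spot without a value, so a missing value is not read as a low level.

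RAB24, which is linked to autophagy, had the opposite pattern. On its best-measured rows it had a value on both arrays in 13 IVF, 0 IVD and 14 AI embryos, and of all IVD arrays only 1 held a value for it. Such a row, with 0 IVD embryos and at least 13 of each other group, occurred 15 times in the table, or in 0.0914% of rows. Its median log2 ratio was -0.36 in IVF and -0.85 in AI embryos. RAB25, a Rab11 relative of epithelial cells, was measured in 14 IVF, 13 IVD and 6 AI embryos, with medians of 0.85, 0.47 and 1.38. SNX22, VPS18, VPS4A and AP3D1 were the other members that were not tested.

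**Figure D4:**
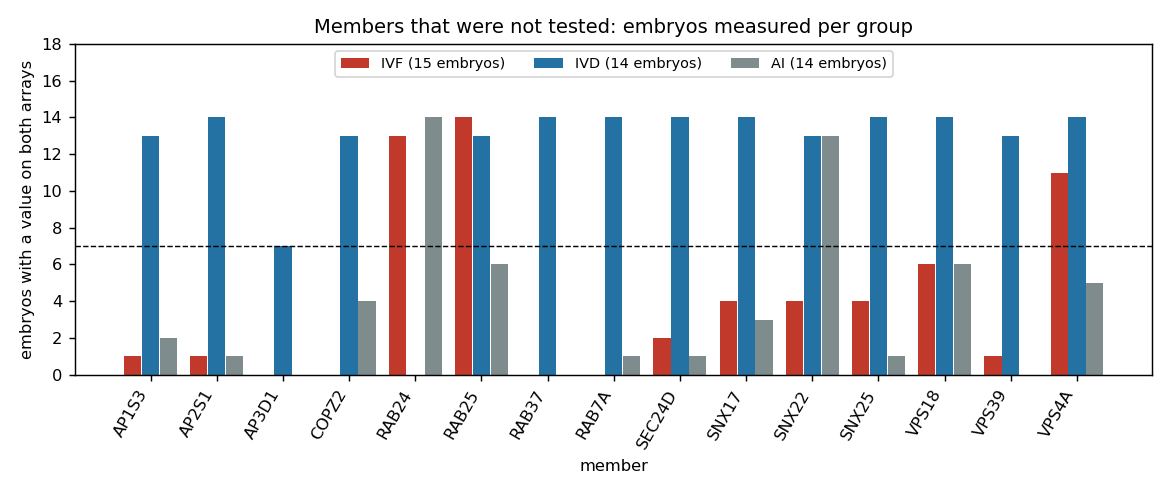
Number of embryos with a value on both arrays (vertical axis), on the best-measured row, for each of the 15 members that were not tested (horizontal axis), with bars for IVF, IVD and AI embryos in that order and the minimum of 7 embryos per group as a dashed line. RAB24 has no IVD bar, while RAB37 and AP3D1 have no IVF and no AI bar.

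Other genes of the pathway that the name rule does not take were read from 8 lists. Of 198 genes, 86 were tested. In IVF minus AI 39 passed (20 higher, 19 lower), beside 37.7% of all features. In IVD minus AI 46 passed (21 higher, 25 lower), beside 46.5%, and in IVF minus IVD 56 passed (31 higher, 25 lower), beside 47.6%. All 86 are named genes, of which 40.1% passed in IVF minus AI, 48.1% in IVD minus AI and 50% in IVF minus IVD. In each comparison the share of the 86 was above those of all features and of named genes, by most in IVF minus IVD. The excess was not tested. The median differences were 0.037, -0.039 and 0.085 in that order. Between IVF and AI embryos, DAB2, an endocytic adaptor that is also among the trophectoderm markers, was lower in IVF embryos at -1.39 ± 0.25 (limma adjusted p = 2.33e-05), and TRAPPC6A, of the TRAPP tether, at -1.08 ± 0.14 (limma adjusted p = 8.89e-08). STAM, which hands ubiquitinated cargo to the ESCRT machinery, was higher in IVF embryos at 1.20 ± 0.21 (limma adjusted p = 2.57e-05), and EXOC3, of the exocyst tether at the plasma membrane, at 0.96 ± 0.20 (limma adjusted p = 0.000202). Between IVD and AI embryos, the golgin GOLGA4 was higher in IVD embryos at 1.53 ± 0.16 (limma adjusted p = 1.93e-10), STX7, a SNARE of late endosomes, at 1.13 ± 0.17 (limma adjusted p = 8.01e-07) and STAM at 0.89 ± 0.22 (limma adjusted p = 0.000841). CAV1, the main protein of caveolae, was lower in IVD embryos at -1.18 ± 0.27 (limma adjusted p = 0.000428). In IVF minus IVD, CHMP5, of ESCRT-III, was -1.44 ± 0.17 (limma adjusted p = 2.29e-09) and STX7 was -1.41 ± 0.17 (limma adjusted p = 4.02e-09), while STX6, a SNARE of the trans-Golgi network, was 1.18 ± 0.27 (limma adjusted p = 0.000358) and EXOC3 was 1.11 ± 0.21 (limma adjusted p = 2.52e-05).

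The counts by list stand beside 19.9% of all features higher and 17.7% lower in IVF minus AI, and 25.5% higher and 21% lower in IVD minus AI. The ESCRT genes had 5 of 6 tested members higher and 0 lower in IVD minus AI, against 2 higher and 1 lower in IVF minus AI. The SNAREs and fusion factors had 1 of 14 higher and 5 lower in IVF minus AI, and 5 higher and 3 lower in IVD minus AI. The tethers and Golgi proteins had 6 of 11 lower and 3 higher in IVD minus AI, against 1 lower and 4 higher in IVF minus AI. The Rab cycle list (regulators that load, unload or extract Rabs) had 4 of 9 higher and 1 lower in IVF minus AI, and 1 higher and 1 lower in IVD minus AI. The Arf cycle list had 2 of 8 higher and 0 lower in IVF minus AI, and 2 higher and 4 lower in IVD minus AI. Genes of endosomes and lysosomes had 3 of 21 higher and 8 lower in IVF minus AI, and 3 higher and 4 lower in IVD minus AI. Of clathrin and endocytosis genes, 1 of 6 was higher and 1 lower in IVF minus AI, and 0 higher and 3 lower in IVD minus AI. Of coat and cargo receptor genes, 3 of 11 were higher and 2 lower in IVF minus AI, and 2 higher and 4 lower in IVD minus AI. In IVF minus IVD the shares of all features were 22.3% higher and 25.2% lower. There the tethers and Golgi proteins had 6 of 11 higher and 4 lower, and the Arf cycle list 5 of 8 and 2. Endosome and lysosome genes had 8 of 21 higher and 7 lower, SNAREs and fusion factors 1 of 14 and 6. The Rab cycle list had 3 of 9 higher and 0 lower, ESCRT 1 of 6 and 3. Clathrin and endocytosis had 3 of 6 higher and 1 lower, coats and cargo receptors 4 of 11 and 2. Differences between the lists were not tested.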

How the data were processed

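Single bovine embryos were measured on 2-colour cDNA arrays against a common reference RNA, 2 dye-swapped arrays per embryo. The authors deposited 1 table of log2 ratios with 16416 rows and 86 columns. How images were read, background removed and arrays normalized is not stated in the labels, nor is the dye of the numerator. Of its cells, 20.1% hold no value, and the number of arrays limits the precision.

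From each array the median of its values on the 5558 rows without gaps was subtracted, because the deposited array medians ran from -2.22 to 1.06. The sign of arrays with a Cy3-labelled embryo was turned, an embryo's 2 arrays were averaged where both had a value, and rows with at least 7 embryos of every group were kept (10757 rows). Rows with the same single symbol in the platform annotation were averaged, which gave 6278 features. Of the 96 member symbols, 95 matched the RefSeq gene table by gene identifier. Clones were not placed on a genome, and no sequences were at hand to print.

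Groups were taken from the labels and compared in limma 3.58.1 (R 4.3.3) by a model of 3 group means over all 43 embryos, two-sided, with Benjamini-Hochberg adjustment over all features and a threshold of 0.05. Errors beside differences are standard errors. The procedure was tested on simulated data, and no outcome of that test is given here. In each comparison the members named are the 10 highest and 10 lowest past the threshold, up to 4 more per role and every measured subunit of the complexes. The members and lists were chosen with earlier results of these data known. The alternatives were no centring, centring on all measured rows, quantile normalization, each dye alone, other row filters, 1 row per gene, the embryo number as a block, IVD embryos 12_1 to 12_4 as 1, leaving out IVF embryos 1, 7 and 11, fitting only the groups compared, and for IVF minus AI the dye-bias cluster as a block. Figures were drawn with matplotlib 3.10.9.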

Additional observations from a re-analysis of the deposited data

How the results depend on the processing

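The number of members called moved by over 1.5 times in IVF minus AI. It was 21 (15 higher, 6 lower) with the values as given, where 1325 features passed, 22 of 54 tested with rows measured in every embryo, where 1571 of 3533 features passed, and 7 with the dye-bias cluster as a block, where 498 features passed. With rows measured in every embryo, which tests fewer features, 1770 passed in IVD minus AI and 1880 in IVF minus IVD. The other counts of members and features stayed within 1.5 times. The centring moved the split of calls as given with the counts. Embryo numbers gave no sign of pairing the groups: over 21 pairs with the same number, deviations from the group means correlated at -0.187 to 0.213, and 3 of 30 embryos correlated best with their own number. The labels do not say whether equal numbers share anything. With the number as a replicate block, 24, 30 and 34 members passed in IVF minus AI, IVD minus AI and IVF minus IVD. Differences past a threshold in the main or the other setting turned in sign in IVD minus AI for ARF3 with the embryo in Cy5 (-0.54), and for RAB22A with rows measured in every embryo (-0.11) and with 1 row per gene (-0.075). They turned in IVF minus IVD with the embryo in Cy3 for ARF3 (-0.56), RAB5IF (-0.45), VPS28 (-0.45) and VPS52 (-0.29). The cause was not tested. How far spots lay above background is not known from the ratios, so members with few measured embryos are the least certain.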

Other observations

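Correlations between members from embryo to embryo went both ways. After the group means were taken out, the median Pearson correlation over all pairs of the 56 members measured in all 43 embryos was -0.0012, beside 0.00085 for the 2345 named genes measured in all 43, with arrays, amplification and group means shared by all points. The pair with the highest correlation was RAB9A and SNX12 (0.69), followed by AP1M2 with RAB28 (0.55), RAB11FIP5 with SEC31A (0.53) and SNX5 with VPS26B (0.53). RAB9A and SNX12 both lie on chromosome X, and the sample titles give no sex for the embryos. The cause of their correlation was not tested. The most negative pairs were SEC11A with VPS52 (-0.54), RAB32 with VPS26B (-0.51) and RAB5B with SEC62 (-0.51). These are descriptions of 43 embryos picked from many pairs.

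The spread between embryos differed by group. The median SD over the tested members was 0.42 in IVF, 0.28 in IVD and 0.35 in AI embryos, beside 0.42, 0.33 and 0.40 over all features. The smallest member SDs were those of ARF4 in IVF (0.21), COPB2 in IVD (0.10) and RAB14 in AI embryos (0.19). The largest were those of TMED5 in IVF (0.98), SNX9 in IVD (0.73) and SNX16 in AI embryos (1.22).

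Against the reference RNA, 12 members lay above 0 in every measured embryo of all groups (14.8%, beside 10.9% of features): ARF5, ARL6IP2, RAB10, RAB11A, RAB1A, RAB4B, SEC11C, SNX24, SNX3, SNX5, VPS26B and VPS8. Another 9 lay below 0 in every embryo (11.1%, beside 13.4% of features): COPG2, RAB11FIP5, RAB13, RAB31, RAB32, RAB33A, SEC61A1, SNX10 and SNX14. No source used here says what the reference RNA was made from.

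Most clones were spotted in duplicate. Over 93 member clones with 2 kept spots, the spots' values correlated across embryos at a median r of 0.959, and at 0.248 to 0.995. Of 24 tested members with more than 1 clone on the array, 17 had more than 1 kept. Of these 17, 4 had clones of opposite sign in IVF minus AI, 5 in IVD minus AI and 4 in IVF minus IVD. Among them, RAB10 and RAB22A each had a call for the mean of their clones in the comparison where the clones disagreed.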
